A study of Mus musculus with 4 samples.

Results

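The measurements concern 10 basement membrane genes in single cells of the intervertebral discs (the cartilage and fibre cushions between vertebrae) of mouse tails. They are Lama4, Lama5, Lamb1, Lamb2 and Lamc1, which encode laminin chains, Nid1 and Nid2, which encode nidogens, Hspg2, which encodes perlecan, and Col4a1 and Col4a2, which encode collagen IV chains. All were taken by symbol from the 32285 genes listed in every count matrix, where each had 1 row. There were 4 libraries, 1 of control discs and 1 of injured discs in each of 2 rounds. All animals were wildtype female C57BL/6 mice, 12 weeks old. Injured discs, at tail levels CC5/6 through CC9/10, were pierced from both sides with a 30G needle and taken 7 days later. Control discs were unpunctured discs at levels CC12/13 through CC16/17 of the same animals, and the effects of tail level and of injury cannot be told apart. The labels give 6 mice and 30 discs pooled per group and do not say whether that holds for each round, so the p-values measure the spread between 2 pools per group. Cells were frozen, thawed and sorted for viability before droplet capture.

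A basement membrane is a thin sheet of matrix that lies under endothelium and epithelium and around mural cells, muscle and fat. Laminin heterotrimers of an alpha, a beta and a gamma chain bind cell surface receptors and form a network, collagen IV forms another, and nidogens and perlecan connect them. Outside vessels, cartilage and disc cells have no continuous sheet but hold several of these proteins, perlecan and collagen IV among them, in the pericellular matrix around each cell.

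A UMI is a count of 1 captured transcript, and levels are given as CPM, the UMIs of a gene per 1000000 UMIs of a cell group in a library. A UMI comes from the 3′ end of a transcript, so a level is not divided by gene length, although capture can still differ between genes. A barcode counted as a cell from 250 detected genes upwards. Totals ran from 1114210 UMIs (control round 1) to 16972879 (injured round 2). Before any value was taken, 159 control barcodes and 48 injured barcodes of round 1 were left out, because the 2 libraries of that round shared these barcodes at similar or much higher UMIs in the injured library. This left 219 and 856 control cells and 730 and 1834 injured cells in rounds 1 and 2, with median UMIs of 3628 and 836 against 7478 and 4635. Clusters were made without the 10 genes and without the other basement membrane genes listed for this work. They were named from markers as inner annulus or cartilage-like, outer annulus or fibroblast-like, nucleus pulposus-like, endothelial-like, mural-like and macrophage-like. A cluster led by Myoc, Angptl7 and Fmod held more outer markers but had the inner markers Comp and Chad among its 10 leading genes, and is called annulus cells of unresolved class. The endothelial-like cluster was led by Ctla2a, Selp, Egfl7, Pecam1 and Cdh5 and the mural-like cluster by Rgs5, Tagln, Acta2 and Notch3.

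With endothelial-like and mural-like cells summed as vascular cells, these had the highest mean level among the named cell groups of every member but Lamb2 and Hspg2, which were higher in outer annulus cells. Taken apart, mural-like cells had a mean Lamb2 of 274 CPM over the 2 injured libraries, against 229 in outer cells over 4 libraries. The outer mean of Lamb2 was 318 in the controls and 139 in the injured libraries. Endothelial-like cells had a mean Hspg2 of 396 ± 330 (SD) over 3 libraries, against 352 ± 169 in outer cells over 4. For Lama4, Lamc1, Nid1, Nid2 and Col4a2 the vascular and outer libraries overlapped. Mean Col4a1 was 1748 CPM ± 861 (SD, n = 4 libraries) in vascular cells, against 29.2 ± 11.3 in inner annulus cells, a ratio of 59.8. Mean Col4a2 was 834.5 ± 410.0 in vascular cells and 44.8 ± 10.0 in inner annulus cells, a ratio of 18.6. Lamb1, Lamc1, Lama4, Nid1 and Lama5 were also higher in every vascular library than in every inner annulus library. Lamb2, Hspg2 and Nid2 overlapped between those groups. These levels across groups are a description of the libraries and were not tested. Vascular cells numbered 8 and 6 in the control libraries and 50 and 35 in the injured libraries of rounds 1 and 2, so the control levels rest on few cells. In control round 2 a single mural-like cell held 19188 of the 28630 vascular UMIs, and it was among the cells removed as likely doublets in an alternative. Without doublets the vascular mean of Col4a1 was 1234 CPM and that of Col4a2 661, and Lamb1, Nid1 and Lama5 were at 0 UMIs in control round 2, so that these 3 no longer separated from inner annulus cells in every library. A cluster that stayed unnamed, led by Ccl11, Dpep1 and Lpl and almost all from control round 2, exceeded the vascular means of several genes there, with 930 CPM of Nid1, 658 of Hspg2, 561 of Lamb1, 465 of Lamc1, 281 of Lama4 and 167 of Nid2. Its Col4a1 was 1237 there.

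**Figure D1:**
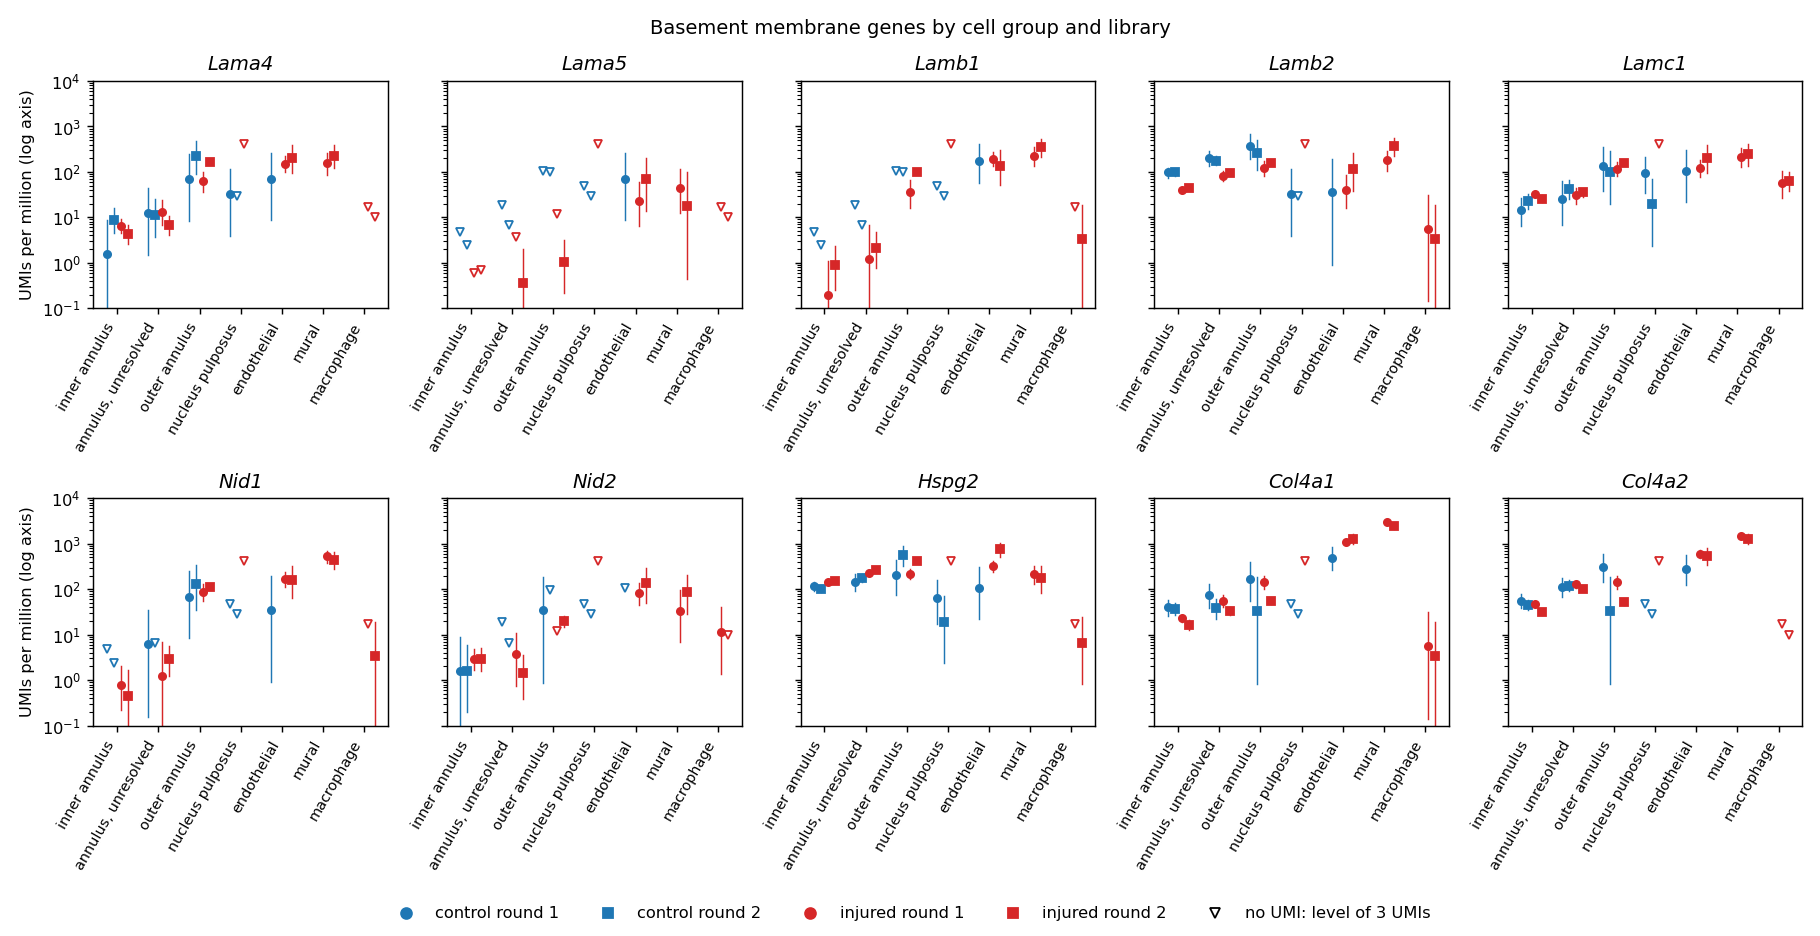
Level of each gene (CPM, log axis) by cell group, with 1 point per library that held at least 5 cells of the group, blue for control and red for injured, circles for round 1 and squares for round 2. Bars are exact 95% Poisson intervals, cut at the bottom of the axis, and open triangles mark libraries with no UMI, drawn at the level that 3 UMIs would give. Col4a1 and Col4a2 are highest in mural-like cells, whereas Lamb2 and Hspg2 stay within a narrower range from inner annulus to mural-like cells.

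Among the laminin alpha chains, Lama4 is the chain typical of endothelium and of mesenchymal cells, and Lama5 is typical of mature vessels and epithelia. Lama4 (10:38965515-39110188, plus strand, mm10 as for all genes here) had 70.8 CPM in endothelial-like cells of control round 1 and 151 and 206 in those of the injured libraries. Mural-like cells had 157 and 228 in the injured libraries. In outer annulus cells it had 68.4 and 228 in the control libraries and 62.8 and 167 in the injured libraries, so the injured values lay within or below the control range. Inner annulus cells had only 1.60 to 8.96 and annulus cells of unresolved class 6.79 to 13.5. The mean ratio of outer to inner annulus cells was 24.5, and no outer library overlapped an inner one. Lama5 (2:180176373-180225859, minus strand) gave 0 UMIs in all 4 inner annulus libraries, which allows at most 4.79, 0.597, 2.44 and 0.685 CPM in the control and injured libraries of round 1 and then of round 2. Over all disc classes it had 4 UMIs, all in injured round 2. Vascular cells had 64.1 and 34.9 CPM in the controls and 30.6 and 39.7 in the injured libraries, from 2 and 1 UMIs in the controls and 8 and 4 in the injured libraries, and the UMI of control round 2 was in the deep mural-like cell.

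The laminin beta chains divided the cell groups. Lamb2 (9:108479736-108490530, plus strand) was found in inner annulus, unresolved annulus, outer annulus and vascular cells alike. Lamb1 (12:31265234-31329644, plus strand), the more widespread beta chain of embryonic and many adult tissues, was found mainly in outer annulus and vascular cells among the named groups. Inner annulus cells had 0, 0, 1 and 4 Lamb1 UMIs in control rounds 1 and 2 and injured rounds 1 and 2, while Lamb2 had 61, 120, 198 and 199. The unresolved annulus cells had 0 and 0 Lamb1 UMIs in controls and 1 and 6 in injured libraries. As a share of Lamb1 and Lamb2 UMIs together, Lamb1 made up 0.858% in inner annulus cells (5 of 583 UMIs, exact Clopper-Pearson 95% interval 0.279 to 1.99%) and 1.55% in unresolved annulus cells (0.625 to 3.16%). In outer annulus cells its share was 39.0% in injured round 2 (283 of 726 UMIs, 35.4 to 42.6%) and 22.5% in injured round 1 (9 of 40, 10.8 to 38.5%), and the controls had 0 of 11 and 0 of 8 UMIs. Its share was 56.3% in mural-like cells (45.3 to 66.9%) and 73.3% in endothelial-like cells (60.3 to 83.9%). These intervals cover counting error only. The low Lamb1 level of inner annulus cells, 0.199 and 0.913 CPM in the injured libraries, was below that of empty droplets, barcodes with at most 100 UMIs, which had 22.1 and 10.6 in the same libraries. Empty droplets had 41.6 (injured round 1), 22.6 (control round 2) and 27.4 (injured round 2) Lamb2 CPM. Inner annulus cells had 39.4, 97.7 and 45.4 in these libraries, so in injured round 1 they were not above empty droplets.

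Lamb1 in outer annulus cells came from the injured libraries, with 35.3 CPM in round 1 and 100.4 in round 2. The control libraries had 0 Lamb1 UMIs there, but these held only 7 and 12 outer cells, and a count of 0 allows up to 103 and 97.8 CPM. The injured value of round 1 was below that limit. The value of round 2 was 1.03 times the limit, but the 95% counting interval of its ratio began at 0.830 and so included no change. These counts leave out the unnamed cluster led by Ccl11 and Dpep1. Its best match was the outer annulus or fibroblast-like list, with 3 detected markers, and it had 561 Lamb1 CPM in control round 2. In vascular cells Lamb1 was at 256 and 210 in controls and 203 and 258 in injured libraries, and all 6 UMIs of control round 2 were in the deep mural-like cell. The gamma chain gene Lamc1 (1:153218922-153332786, minus strand), is part of most laminin trimers. It had 14.4 to 32.3 CPM in inner annulus cells, at most 42.3 in unresolved annulus cells, 97.8 to 157 in outer annulus cells and 96.1 to 228 in vascular cells. Lamc1 was also the only one of the 10 genes above 12 CPM in macrophage-like cells of the injured libraries, at 56.1 and 63.6, from 10 and 19 UMIs.

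**Figure D2:**
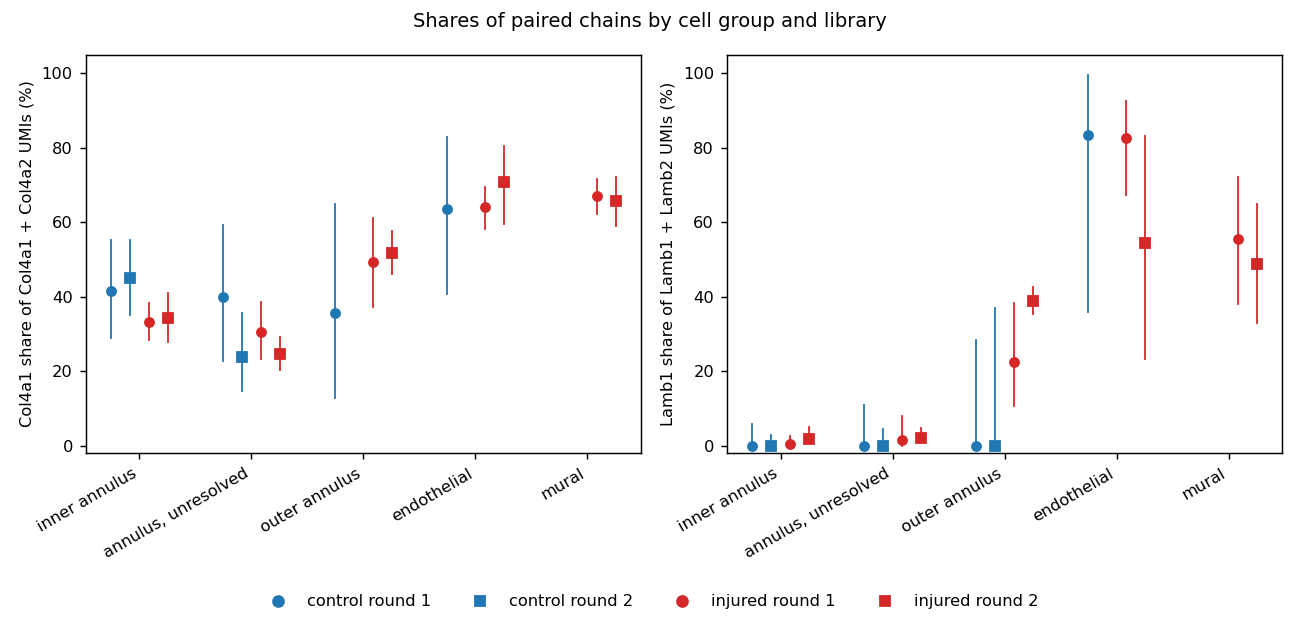
Col4a1 as a share of Col4a1 and Col4a2 UMIs (left) and Lamb1 as a share of Lamb1 and Lamb2 UMIs (right), in percent, per library with at least 5 cells and 5 UMIs of the pair, with exact 95% binomial intervals. Colours mark control (blue) and injured (red), and circles and squares mark rounds 1 and 2. The Lamb1 share stays at or below 2.19% in inner and unresolved annulus cells and is above 48% in all plotted endothelial-like and mural-like libraries.

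The nidogens link laminin to collagen IV. Nid1 (13:13437551-13512269, plus strand) had 0, 0, 4 and 2 UMIs in inner annulus cells of control rounds 1 and 2 and injured rounds 1 and 2. Its level in outer annulus cells was 68.4 and 130 CPM in controls and 86.3 and 114 in injured libraries, which overlap. Of the named groups, mural-like cells had the highest Nid1, at 526 and 439 in the injured libraries, above the 168 and 160 of endothelial-like cells there. Nid2 (14:19751265-19811787, plus strand) had 1.60, 1.63, 2.99 and 2.97 CPM in inner annulus cells, from 1, 2, 15 and 13 UMIs. In endothelial-like cells of the injured libraries Nid2 reached 81.2 and 137. Nid1 made up 90.6% of nidogen UMIs in mural-like cells (95% interval 82.3 to 95.8%) and 64.9% in endothelial-like cells (51.1 to 77.1%).

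Perlecan, the large heparan sulfate proteoglycan of basement membranes and of the pericellular matrix of cartilage, was encoded by the member with the most UMIs in disc cells. Hspg2 (4:137468769-137570630, plus strand) had 963 and 2613 UMIs in all disc classes of injured rounds 1 and 2 and 106 and 225 in the controls. Its mean level was 128 CPM ± 22.6 (SD, n = 4) in inner annulus cells, 204 ± 54.4 in unresolved annulus cells, 352 ± 169 in outer annulus cells and 246 ± 144 in vascular cells. The libraries of all these groups overlapped each other, except those of inner and outer annulus cells. Nucleus pulposus-like cells, 29 and 66 in the controls, had 63.9 and 19.5 CPM, from 4 and 2 UMIs. Those cells had no UMI of Col4a1, Col4a2, Lamb1, Nid1, Nid2 or Lama5 in either control library, where a count of 0 allows 47.9 and 29.2 CPM, near the Col4a1 level of inner annulus cells. Their median share of mitochondrial UMIs was 46.0%, and 5 and 1 control cells were under 10%. The injured libraries held only 5 and 1 such cells.

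Collagen IV chains are built from Col4a1 (8:11198423-11312826, minus strand) and Col4a2 (8:11312805-11449287, plus strand), which lie head to head on chromosome 8. In mural-like cells Col4a1 reached 3045 and 2457 CPM in injured rounds 1 and 2, and in endothelial-like cells 1073 and 1282. Col4a2 had 1489 and 1281 in mural-like cells and 603 and 527 in endothelial-like cells of those libraries. Both genes were therefore higher in mural-like cells in each injured library, the ratios of the means of the injured libraries being 2.34 and 2.45. The share of Col4a1 among the UMIs of both was 67.3% in mural-like cells (95% interval 63.8 to 70.7%) and 65.2% in endothelial-like cells (60.3 to 69.9%). In outer annulus cells it was 50.8% (45.7 to 55.8%), in inner annulus cells 35.9% (32.4 to 39.5%) and in unresolved annulus cells 26.7% (23.3 to 30.3%). Vascular cells of all 4 libraries lay between 65.9 and 70.4%, with most of the control round 2 UMIs from the deep mural-like cell, and inner annulus cells between 33.2 and 45.1%. Empty droplets had 46.6 (control round 2), 107 (injured round 1) and 45.6 (injured round 2) Col4a1 CPM, more than inner annulus cells of the same libraries, at 37.4, 23.1 and 16.4. Its part in the low disc cell values was not tested.

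The pair is known to share a promoter, and both promoter windows of the RefSeq mouse annotation (GRCm38.p6) are shown because the 2 genes had the highest likeness of any 2 members. Over 19 sums of cell class by library, the Pearson r of log2(CPM + 10) was 0.96, as a description of points that share libraries. Each window runs from 250 bases before to 50 after a gene's start and is written 5′ to 3′ on that gene's strand. Capitals mark the 78 bases that both windows cover, so each run in capitals is the reverse complement of the other. The Col4a1 window is chr8:11312777-11313076 on the minus strand, and the Col4a2 window chr8:11312555-11312854 on the plus strand.
Col4a1: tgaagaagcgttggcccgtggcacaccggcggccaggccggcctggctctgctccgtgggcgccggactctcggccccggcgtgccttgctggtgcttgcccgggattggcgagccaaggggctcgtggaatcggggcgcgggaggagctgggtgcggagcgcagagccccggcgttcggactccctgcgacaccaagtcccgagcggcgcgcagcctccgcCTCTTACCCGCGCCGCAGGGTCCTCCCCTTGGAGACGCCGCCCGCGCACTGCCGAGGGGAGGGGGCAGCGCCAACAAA
Col4a2: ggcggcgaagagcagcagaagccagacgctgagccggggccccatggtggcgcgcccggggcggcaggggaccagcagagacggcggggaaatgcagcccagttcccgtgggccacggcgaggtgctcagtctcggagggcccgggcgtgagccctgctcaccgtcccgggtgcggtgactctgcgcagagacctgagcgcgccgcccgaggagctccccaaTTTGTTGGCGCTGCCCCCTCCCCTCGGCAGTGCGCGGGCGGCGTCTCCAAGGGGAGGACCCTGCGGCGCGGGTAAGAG
The starts lie 21 bases apart. A few letter patterns of promoters were searched on both strands. CCAAT, found in 37.4% of 32851 windows of this length, had 1 match in each window. GGGCGG, found in 35.7%, had 1 match in the Col4a1 window and 3 in the Col4a2 window. The Col4a1 match and 1 of the Col4a2 matches are the same bases, within the stretch that both windows cover. TATAAA, found in 13.6%, was in neither. These are matches of letters and not sites shown to be bound.

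Injury was compared within cell groups on UMIs summed per library. The inner annulus class had 109 and 241 control cells and 420 and 751 injured cells in rounds 1 and 2. The clearest value was that of Lamb2, although its 39.4 CPM in injured round 1 was not above the 41.6 of empty droplets there. Its level was 97.3 and 97.7 CPM in the controls against 39.4 and 45.4 in the injured libraries, so the groups did not overlap and the ratios were 0.405 (95% counting interval 0.303 to 0.549) in round 1 and 0.465 (0.369 to 0.588) in round 2. In edgeR's quasi-likelihood test the log2 change was -1.09 ± 0.38 (SE) with a Benjamini-Hochberg adjusted p = 0.438, which is not a call. With round as a replicate block, since control and injured discs came from the same animals, the change was -1.09 ± 0.30 and edgeR's adjusted p = 0.00692, a call. Among all 10277 genes tested, 0.0292% were called without the block and 9.08% with it. In the injured libraries 15.3% of genes were higher than in both controls and 23.6% were lower than in both, and of the 6 members tested 2 were higher in this sense (Lamc1 and Hspg2) and 2 lower (Lamb2 and Col4a1).

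The Lamb2 difference in the inner annulus class moved with the clusters that made up the class. Of its control cells, 98 of 109 and 211 of 241 were in the clusters with Cnmd, the cartilage gene chondromodulin, among their 10 leading genes, against 33 of 420 and 78 of 751 injured cells. Most injured cells were in a cluster led by Saa1, an acute phase gene, and in another led by the growth factor gene Bmp2 and the matrix protease gene Mmp3. Within the Cnmd clusters Lamb2 had 94.2 and 118 CPM in the controls and 119 and 98.5 in the injured libraries, which overlap. Its log2 change there was 0.04 ± 0.43 (SE), with edgeR's adjusted p = 1.00, over all 5476 genes tested. In the Saa1 cluster Lamb2 was 21.3 in control round 2 (28 cells), 29.1 in injured round 1 (41 cells) and 41.1 in injured round 2 (656 cells). That control value rests on few Lamb2 UMIs, since the 28 cells held 234665 UMIs of all genes, and control round 1 had only 2 cells in the cluster. In the Bmp2 cluster Lamb2 was 35.1 in injured round 1 (338 cells) and 137 in control round 1 (8 cells, 7 UMIs). The part of the cluster make-up in the Lamb2 difference was not tested.

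**Figure D3:**
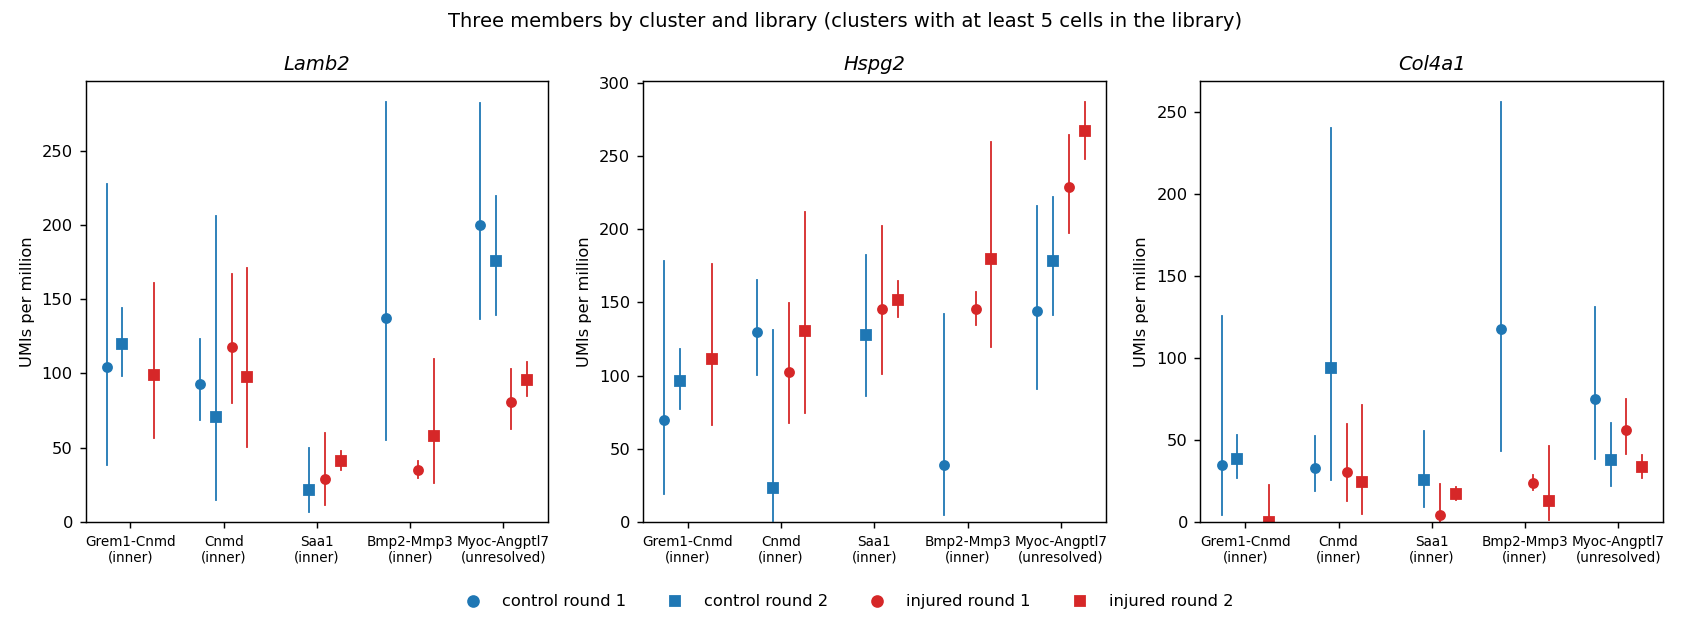
Levels of Lamb2, Hspg2 and Col4a1 (CPM, linear axis from 0) in 4 clusters of the inner annulus class and in annulus cells of unresolved class, per library with at least 5 cells, with exact 95% Poisson intervals. Blue marks control, red injured, circles round 1 and squares round 2. Lamb2 lies at 70.4 to 120 in the Cnmd clusters of both groups and at 21.3 to 57.7 in the Saa1 and Bmp2 clusters, apart from 8 control cells, and in the unresolved annulus cells both injured points are below both control points.

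The annulus cells of unresolved class were 1 cluster, with 29 and 65 control cells and 80 and 368 injured cells. Lamb2 was 200.04 and 176 CPM in control rounds 1 and 2 and 80.8 and 95.7 in injured rounds 1 and 2. The groups did not overlap, and the ratios were 0.404 (0.261 to 0.637) and 0.544 (0.422 to 0.708). The log2 change was -0.98 ± 0.36 (SE) with edgeR's adjusted p = 0.286, and with the block -0.96 ± 0.28 with adjusted p = 0.0541, so neither fit called it. Among 6239 genes tested, 0.625% were called without the block and 5.42% with it. Both injured libraries were higher than both controls for 19.8% of genes and lower for 23.5%, and of the 5 members tested Hspg2 was higher and Lamb2 lower. With the shared barcodes kept, the Lamb2 change was -1.08 in the inner annulus class and -0.999 in the unresolved cells. The change did not differ detectably between the 2 groups of cells, with an interaction of 0.13 ± 0.32 (SE) and edgeR's adjusted p = 1.00, where 0.171% of 8779 genes were called. In outer annulus cells Lamb2 was 376 and 261 in the few control cells and 122 and 157 in the injured libraries, which was not tested.

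Hspg2 was higher in injured libraries in both groups of annulus cells without reaching a call. In the unresolved cells it was 144 and 178 CPM in the controls and 229 and 267 in the injured libraries, with a log2 change of 0.70 ± 0.36 (SE) and edgeR's adjusted p = 0.467, or 0.150 with the block. In inner annulus cells it was 116 and 103 against 143 and 151, with a change of 0.54 ± 0.38 and adjusted p = 0.756, or 0.281 with the block. As for Lamb2, the change of Hspg2 in the Cnmd clusters alone was near 0, at 0.05 ± 0.44. Col4a1 in inner annulus cells was 39.9 and 37.4 in the controls and 23.1 and 16.4 in the injured libraries. Its log2 change was -0.86 ± 0.41 with adjusted p = 0.604, or 0.0789 with the block, and in the Cnmd clusters -0.89 ± 0.60. Col4a2 followed less closely, at 55.9 and 45.6 against 46.4 and 31.5, with a change of -0.28 ± 0.40. In the unresolved annulus cells Col4a1 was 75.0 and 37.9 in controls and 56.3 and 33.6 in injured libraries, and Col4a2 was 113 and 120 against 127 and 103, so both overlapped. Lamc1 had a log2 change of 0.72 ± 0.43 in inner annulus cells and -0.01 ± 0.44 in the unresolved cells. No interaction of a member was called, the largest being that of Col4a1 at 0.77 ± 0.44 with adjusted p = 0.939.

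**Figure D4:**
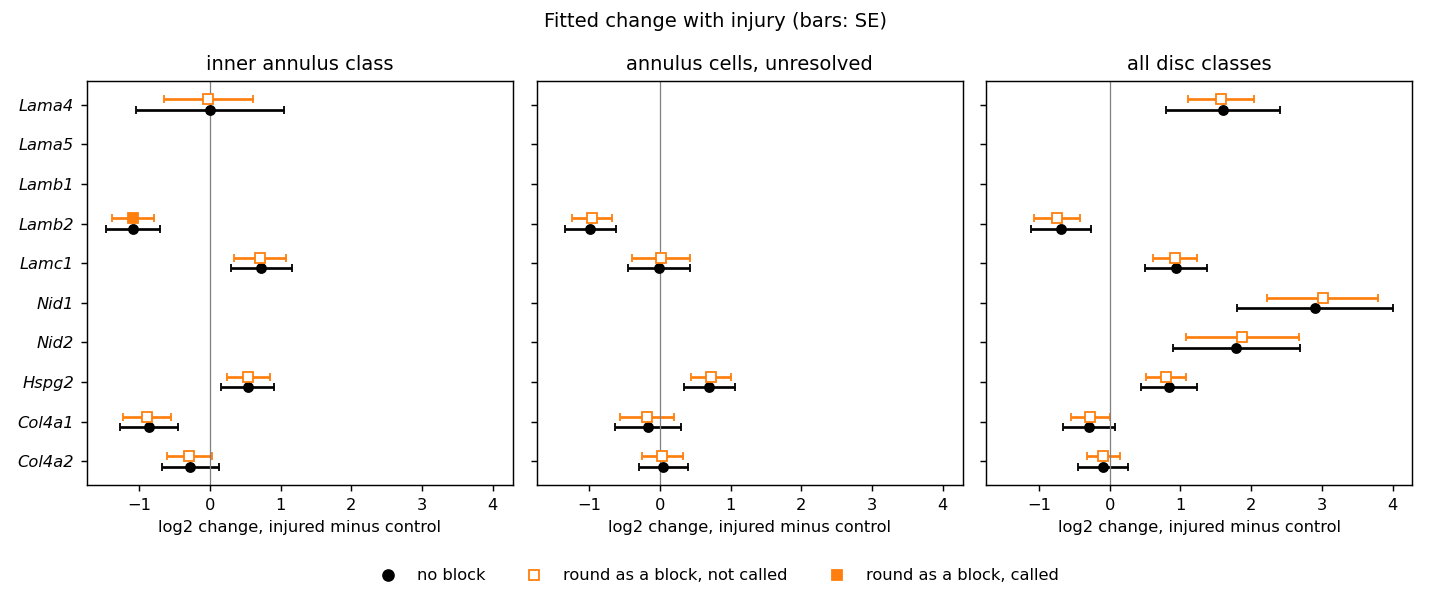
Log2 change (injured minus control) of each member that passed the filter on low counts, with its SE, in 3 sets of cells. Black circles are edgeR fits without a block, and orange squares are fits with round as a block, filled where the adjusted p was under 0.05. Lamb2 in the inner annulus class, at -1.09, is the only filled point.

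Over all disc classes together, which include nucleus pulposus-like and outer annulus cells, 8 members were tested and none was called with or without the block. Among the 11195 genes tested, 0.0179% were called without the block and 1.04% with it. Both injured libraries were higher than both controls for 17.1% of genes and lower for 20.9%, and among the members Lamc1, Nid1, Nid2 and Hspg2 were higher and Lamb2, Col4a1 and Col4a2 lower. For Col4a2 this was a near tie, with 70.6 and 61.3 CPM in the controls and 61.3 and 57.3 in the injured libraries. The median change of the 8 was 0.89 on the log2 scale, against -0.03 over all genes tested, and with outer annulus cells left out it was -0.07 over the 6 members still tested. Nid1 had the largest, at 2.90 ± 1.10 (SE) with edgeR's adjusted p = 0.560, from 3.41 and 2.21 CPM in the controls to 4.43 and 33.2 in the injured libraries. Lama4 had the largest change of the laminin genes that passed the filter on low counts, with 7.97 and 12.7 against 9.83 and 50.8 and 1.60 ± 0.80 on the log2 scale. Lamb1 did not pass the filter, with 0 UMIs in both controls and 11 and 293 in the injured libraries, or 1.80 and 29.3 CPM. In round 2 it was 17.68 times the level of the 3 UMIs that a count of 0 allows, with a lower 95% counting limit of 14.29 for the ratio. In round 1 the injured value was below the level of 3 UMIs. Over all cells, with vascular cells and unnamed clusters included, Lamb1 was 33.8 CPM in control round 2 and 30.7 in injured round 2. Nid1 was 54.1 and 34.9 in that count, and Lama4 30.1 and 50.7. Within the disc classes only injured round 2 was high for Nid1, Lama4 and Lamb1. That library held 423 outer annulus cells, against 36 in injured round 1 and 7 and 12 in the controls. When outer annulus cells were left out, the Lama4 change was -0.16 ± 0.53, the Lamc1 change 0.40 ± 0.37, and Nid1 no longer passed the filter on low counts. When injured round 1 was left out, Nid1 was called at a log2 change of 3.73 and Lama4 at 2.35 (edgeR's adjusted p = 0.00459 and 0.0342), in a fit that called 0.886% of 10609 genes higher and left injured round 2 as the only injured library. When injured round 2 was left out instead, the Lama4 change was -0.0531 and Nid1 did not pass the filter. In summed cells, more cells of a type and more RNA per cell cannot be told apart.

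Within the outer annulus class of injured round 2, the cluster led by Aspn and Cthrc1 (239 cells) and the cluster led by cell cycle genes such as Top2a and Cenpf (67 cells) had similar levels of most members named here. Lama4 was 179 and 168 CPM in them, Lamb1 102.3 and 117.5, and Nid1 121 and 115. Lamc1 was 152 and 201, with 95% counting intervals that met (135 to 170 and 169 to 237). Hspg2 was 476 (445 to 508) and 351 (309 to 398), intervals that do not meet, but this is 1 library with no replicate and the intervals cover counting error only. The last cluster of the class there (117 cells, led by AY036118 and Aspn) was shallow, and had 226 Hspg2, 41.2 Lama4 and 20.6 Lamb1 CPM.

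Vascular cells were too few in the controls for a test. Their Col4a1 was 608 CPM in control round 1 and 1747 in injured round 1, a ratio of 2.87 (1.82 to 4.81), but 2689 in control round 2 and 1947 in injured round 2, a ratio of 0.724 (0.553 to 0.955). The 2 rounds thus went opposite ways when all vascular cells were summed. The deep mural-like cell of control round 2 held 71 of the 77 Col4a1 UMIs there. Without doublets that control fell to 635 CPM, from 6 UMIs, and the ratio of round 2 was 3.06 (1.38 to 8.45). In endothelial-like cells alone Col4a1 was higher in injured cells of both rounds, with ratios of 2.17 (1.26 to 4.04) and 2.87 (1.06 to 10.9), from 14 and 4 control UMIs. In mural-like cells alone the ratios were 1.82 (0.769 to 5.64) and 0.662 (0.496 to 0.891), from 5 and 73 control UMIs. Without doublets the round 2 ratio of mural-like cells was 0.603 (0.164 to 5.03). Control round 1 had 7 endothelial-like cells and 1 mural-like cell, and control round 2 had 4 and 2, or 4 and 1 without doublets. The injured libraries had 36 and 14 in round 1 and 16 and 19 in round 2. The mix of the 2 cell types thus differed between control and injured sums, and its part in the summed vascular ratios was not tested. Col4a2 followed the same pattern as Col4a1 in summed vascular cells, with ratios of 3.54 and 0.780, the latter 1.80 (0.745 to 5.67) without doublets. In endothelial-like cells alone its ratios were 2.13 (1.04 to 5.07) and 1.57 (0.475 to 8.17), the latter including no change. Hspg2 was 96.1 and 175 in the controls, from 3 and 5 UMIs, and 287 and 427 in the injured libraries, and Nid1 was 64.1 and 140, from 2 and 4 UMIs, and 290 and 318. Both were higher in each round, but the 95% counting intervals of the Hspg2 ratio began at 0.982 and 0.971 and that of the Nid1 ratio in round 2 at 0.807, which include no change. The Nid1 interval of round 1 was 1.21 to 38.1. All control round 2 UMIs of both genes were in the deep mural-like cell. Without doublets the round 2 interval of Hspg2 began at 1.05 and that of Nid1 at 0.768. In endothelial-like cells alone Hspg2 had 33 UMIs against 0 in round 2, with an interval from 1.73. Its round 1 interval in those cells began at 0.994, which includes no change. The Nid1 intervals of endothelial-like cells began at 0.788 and 0.295 in rounds 1 and 2, which also include no change.

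Most vascular cells of the injured libraries had a Col4a1 UMI. After each cell was thinned to 1000 UMIs, 27 of 45 vascular cells in injured round 1 and 21 of 30 in injured round 2 had a Col4a1 UMI, against 9 of 414 (2.17%) and 8 of 731 (1.09%) inner annulus cells. Outer annulus cells had one in 3 of 16 (18.8%) and 25 of 346 (7.23%). Macrophage-like cells, which should lack the gene, had it in 0 of 31 and 1 of 77 cells. Unthinned, the shares in vascular cells were 70.0 and 82.9% at median depths of 3669.5 and 2469 UMIs, and in macrophage-like cells 2.70 and 1.12% at 3713 and 3295. The Lamb2 share in thinned inner annulus cells was 5.66 and 5.45% in the controls and 2.66 and 4.79% in the injured libraries, with overlapping intervals, and 36.7, 32.8, 29.8 and 21.2% unthinned.

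Genes outside the 10 were ranked by likeness of profile over the 19 sums, and those most similar are named by member. Each sum held at least 10 cells, so the only vascular sums were from injured libraries. For Lama5 they were Apold1 (r = 0.99), Mcam and Esam (both 0.97), which are expressed by endothelial and mural cells. These values rest on few Lama5 UMIs, with 4 and 3 in endothelial-like and 4 and 1 in mural-like cells of injured rounds 1 and 2. For Col4a1 they were Rasd1, Adgrf5 and Apold1 (0.92, 0.92 and 0.91), and for Col4a2 they were Bcr, Gng11 and Rasd1 (0.93, 0.92 and 0.90). Among the genes most like Lamb1 were Lrrc32 (0.96) and Col18a1 (0.93), the latter a basement membrane collagen. Nid2 was most like Tspan9, Esam and Mcam (0.94, 0.94 and 0.93). The genes most like Lama4 were Rhoj, Gulp1 and Cnn3 (0.91, 0.90 and 0.89). For Lamb2 they were Mfge8, Ccnd2 and Amotl1 (0.89, 0.88 and 0.88), and for Hspg2 Nfib, Nckap1 and Gnas (0.93, 0.92 and 0.87). Lamc1 was most like C1qtnf12, Slc9a8 and Filip1l (0.91, 0.88 and 0.87), and Nid1 like Syne2, Asnsd1 and Ifitm3 (0.91, 0.90 and 0.89). Between members, Hspg2 and Lamb2 had r = 0.78 with each other but 0.44 and 0.39 with Lamb1. These are descriptions over sums that share libraries and depth, with no test.

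Of the other structural genes of basement membranes, edgeR called Fbln1 without the block, and Fbln1 and Sparc with it. Of 24 listed, 7 passed the filter in the unresolved annulus cells, and Fbln1, which encodes the matrix glycoprotein fibulin-1, was lower in injured libraries, at 469 and 365 CPM in the controls and 89.4 and 77.5 in the injured libraries. The log2 change was -2.24 ± 0.36 (SE) with edgeR's adjusted p = 0.0245, and it was called under every alternative run for these cells, with changes from -2.60 to -2.01. In inner annulus cells Fbln1 was 132 and 116 against 36.0 and 11.4, with a change of -2.30 ± 0.53 and edgeR's adjusted p = 0.182, or 1.65e-12 with the block, but in the Cnmd clusters alone its change was 0.03, so that value too moved with the clusters of the class. In all disc cells Fbln1 was 181 and 171 against 42.8 and 33.6, with edgeR's adjusted p = 0.155, or 0.0199 with the block. Sparc, a collagen-binding matricellular protein, was 1963 and 2319 against 6363 and 5274 in inner annulus cells, with adjusted p = 0.307, or 0.0250 with the block in edgeR. Smoc2, a relative of Sparc, was 605 and 553 against 282 and 279 there, with adjusted p = 0.545. Smoc1 in the unresolved cells was 18.8 and 75.7 against 127 and 104, with adjusted p = 0.333. Over the tested genes of this list the median log2 change was -0.25 in inner annulus cells (9 genes) and 0.18 in the unresolved cells, where the median over all genes was -0.05 and 0.01.

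Genes that modify and crosslink collagen IV or glycosylate laminin receptors had mostly positive changes. Of 15 listed, 11 of 15 tested had positive changes in inner annulus cells and 11 of 12 in unresolved annulus cells, with medians of 0.53 and 0.84. Over all genes tested 46.5% and 50.7% of changes were positive. The quasi-likelihood test of edgeR called none without the block. With the block, edgeR called 5 higher in inner annulus cells, namely Loxl2, P4ha2, Plod1, Plod3 and Pxdn, and 4 higher in the unresolved cells, namely Lox, Loxl2, P4hb and Plod3. Over all genes 4.74% and 3.4% were called higher with the block. Pxdn encodes peroxidasin, which forms the sulfilimine crosslink of collagen IV, and its level was 38.3 and 23.6 CPM in control and 61.5 and 60.9 in injured inner annulus cells (log2 change 1.15 ± 0.33 with the block, edgeR's adjusted p = 0.0111), while in the Cnmd clusters alone its change was -0.36. Loxl2, a lysyl oxidase-like enzyme, was 60.6 and 103 against 154 and 161 (1.08 ± 0.31 with the block, adjusted p = 0.00906), and 0.21 on the log2 scale in the Cnmd clusters. Lox, the lysyl oxidase that crosslinks fibrillar collagen and elastin, was 350.1 and 285 against 984 and 951 in unresolved cells (1.71 ± 0.31 with the block, adjusted p = 0.00254). Many enzymes of this list also serve fibrillar collagens. Of 14 receptors, 9 were tested in each group of annulus cells and none was called with or without the block. Sgcb, a subunit of the sarcoglycan complex, had the largest change in inner annulus cells, at 0.76 ± 0.47 (SE), and Itga1, a collagen-binding integrin subunit, in unresolved cells, at 0.57 ± 0.51. Ddr2, a collagen receptor kinase, had a change of -0.32 ± 0.40 in inner annulus cells and -0.57 ± 0.40 in unresolved cells, and Itga6, a laminin receptor subunit, 0.48 ± 0.49 in unresolved cells.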

How the data were processed

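The authors' deposited values are whole UMI counts per gene and barcode, made with Cell Ranger on the mm10 genome per the labels, version 6.0.0 for control round 1 and 4 for the others per the file headers. The control round 1 matrix held 444 barcodes of at least 502 UMIs, and the others were unfiltered, so the depth of empty droplets is known in 3 libraries only. The members and gene lists were chosen with earlier results of these data known.

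Cells had at least 250 detected genes and were clustered with scanpy 1.11.5 (2000 variable genes, 30 components, 20 neighbours, Leiden resolution 1). A cluster was named by its detected markers from 16 lists, with at least 3 needed, and names can differ from the authors' own. No doublets were removed in the reported values, and an alternative removed 1, 5, 6 and 27 cells by Scrublet score. Shared barcodes of round 1 were compared by their ratio of UMIs, similar meaning 0.3 to 3.

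UMIs were summed per class and library and tested with edgeR 4.0.16 (quasi-likelihood, two-sided, default low-count filter, TMM, injury as the term, Benjamini-Hochberg adjustment, calls at adjusted p under 0.05), tested on simulated data first. Classes needed 20 cells in every library (vascular cells 10), so the planned tests of outer annulus and vascular cells were not run. The unresolved annulus cluster was tested in place of the outer class, also in the interaction with library as a term, a choice made after the clusters were seen. Control and injured discs share animals per the labels, which pairs the rounds, and the fit with that block leaves 1 residual degree of freedom per gene. Deviations of same-round libraries from their group means correlated at 0.447, 0.512 and 0.308 in disc, inner annulus and unresolved cells. With 2 libraries a group an exact permutation test of a single value cannot go below p = 0.33, and none is given. Levels of groups are shown from 5 cells a library, while the injured to control ratios of vascular cells and the shares pooled over libraries also used smaller groups. A UMI count of 0 is taken to allow 3 UMIs. Intervals and limits cover counting error only. All 10 members are described. In the other lists every called gene was named, otherwise up to 3 with the largest change. The 3 most alike genes were taken from 9735 with at least 100 UMIs in sums of at least 10 cells, and 1 of those found is not reported here. Coordinates are from GENCODE M21 on mm10. Alternatives included DESeq2 1.42.0, other normalization, filters, cells and clusters, and each library left out.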

Additional observations from a re-analysis of the deposited data

Results flagged for a closer look

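A cluster led by Ccl11, Dpep1 and Lpl entered no comparison of injured with control cells. All of its barcodes in control round 1 were shared at similar UMIs with the injured library, so it stayed unnamed. Its best match among the marker lists was outer annulus or fibroblast-like, with 3 detected markers. After the shared barcodes were left out it held 267 cells of control round 2, 11 of injured round 1 and 8 of injured round 2, with a median of 385.5 UMIs per cell before that step. In control round 2 it stood out because the lower counting limit of several members lay above the highest library of any annulus class. There Col4a1 was 1237 CPM (141 UMIs), Nid1 930 (106 UMIs), Col4a2 579 (66 UMIs), Lamb1 561 (64 UMIs) and Lamc1 465 (53 UMIs). Nid1 was also among the 10 leading genes of the cluster, although it was not used to make it. Hspg2 was 658, Lama4 281 and Lama5 at 0 UMIs in the same cells. The presence of these cells in mainly 1 library means that no comparison with injury could be made.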

How the results depend on the processing

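No member passed the threshold in the reported fits without the block, and 3 passed under an alternative. Lamb2 in the inner annulus class was called with round as a replicate block (-1.09). In all disc cells Lama4 and Nid1 were called without a filter on low counts (1.74 and 3.04) and without injured replicate 1 (2.35 and 3.73). No other member was called under any alternative run. The number of genes called varied more. With round as a replicate block it was 116 in disc cells, 933 in inner annulus cells and 338 in unresolved annulus cells, against 2, 3 and 39 without the block. Of these last calls, all were also made with the block. DESeq2 called 144, 124 and 76, and omitting the filter 348, 256 and 193, with 41 for the interaction against 15. A minimum of 500 genes gave 0 and 15 in disc and inner cells, under 10% mitochondrial UMIs 0 and 15, and doublet removal 14 in inner cells. At the counts of 0 for disc cells, 887 and 822 genes had an unadjusted edgeR p under 0.05. Keeping shared barcodes gave 0 in inner cells (836 unadjusted). Leiden resolution 0.5 gave 18 in unresolved cells and 28 for the interaction. Leaving out each library gave 12 to 159 in disc, 83 to 248 in inner, 67 to 171 in unresolved cells and 24 to 63 for the interaction, all with the lone library assumed to vary like the others. Of the alternatives chosen after seeing the data, leaving out the outer class gave 16 in disc cells, adding it gave 125 in unresolved cells, and the Cnmd clusters gave 0 in inner cells (97 unadjusted). The causes were not tested.

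Some values changed sign. In inner cells the Lama4 change was 0.0018 without an alternative, -0.0236 with the replicate block, -0.10 with shared barcodes, -0.0077 at 500 genes, -0.18 under 10% mitochondrial UMIs, -0.0358 without doublets and -0.0041 at resolution 0.5, and ran from -0.54 to 1.85 with each library left out. In the Cnmd clusters Lamb2 was 0.0420 against -1.09 in the whole inner class, Fbln1 0.0296 against -2.30 and Pxdn -0.36 against 1.12. In disc cells Lama4, 1.60 with all classes, was -0.16 without the outer class and ran from -0.0531 (without injured replicate 2) to 2.35, and Col4a2 was 0.0498 without the filter, 0.0245 without the outer class and from -0.18 to 0.0638 with a library left out. In unresolved cells Lamc1 was 0.0228 with the replicate block, 0.14 without the filter, 0.0369 under 10% mitochondrial UMIs, 0.0461 at resolution 0.5, 0.76 with the outer class, and from -0.23 to 0.55 with a library left out. Col4a1 there ran from -0.67 to 0.32 with a library left out, and Col4a2 was -0.0566 with shared barcodes and -0.33 with the outer class. For the interaction Lama4 was 0.0724 at resolution 0.5 and ran from -2.03 to 0.51 with a library left out, and Hspg2 from -0.0428 to 0.52. Of the member levels recomputed, 2 moved by more than the SD between libraries, Lamb1 in vascular cells to 179 without doublets and Lamc1 in outer cells to 155 at resolution 0.5.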
